A study of Mus musculus with 6 samples.

Results

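Aminoacyl-tRNA synthetases attach each amino acid to its transfer RNA, and every protein chain made in the cytosol or in mitochondria draws on their products. The genes described here are 36 aminoacyl-tRNA synthetase genes, chosen by symbol from the 17169 gene entries of the deposited table, and each had 1 entry. Of these, 20 encode enzymes of the cytosol and 16, whose symbols end in 2, encode enzymes of mitochondria. Most amino acids have a separate nuclear gene for each compartment. Gars and Kars each supply both compartments from 1 gene, Eprs joins the glutamate and proline enzymes in 1 chain, and Farsa and Farsb encode the subunits of the cytosolic phenylalanine enzyme. Several cytosolic enzymes sit in a multi-synthetase complex held together by scaffold proteins. The transcription factor ATF4, made when uncharged transfer RNA activates the kinase GCN2, is known to switch on many cytosolic synthetase genes in mouse fibroblasts.

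Transcripts were sequenced from 3 mouse cell lines, BBC, ZNF and BCRF8C, set up from marrow of diseased Balb/c animals. The disease, stem cell leukemia/lymphoma, is driven by fusions of the FGFR1 kinase. Each line was kept for 24 h with BGJ398, an inhibitor of FGFR kinases, or with its vehicle DMSO, and 1 library was made per line and agent (3 with BGJ398 and 3 with DMSO). If the doses follow the protocol's order of lines, the agent was at 30 nM for BBC, at 3 nM for ZNF and at 1.5 nM for BCRF8C, so dose and line cannot be told apart. Each line comes from cultured leukemic cells, and whether a line is 1 clone is not given in the sources used here. Values are FPKM, fragment numbers divided by transcript length and by the fragments mapped in the library, and the depth behind them is unknown. Log2 ratios are BGJ398 over DMSO on the log2(FPKM + 1) scale, which understates changes of low genes.

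The libraries differed as a whole. Over the 14232 genes tested, the median was 4.53, 6.47 and 4.92 FPKM in the BGJ398 libraries of BBC, ZNF and BCRF8C, against 9.95, 8.36 and 9.03 FPKM in their DMSO libraries, and the median log2 ratio was -0.69. Every value below is to be read against that shift, and FPKM from bulk culture cannot tell fewer cells of a kind from less RNA per cell. The 6 B lineage markers used summed to 659 FPKM with BGJ398 and 1248 with DMSO in BBC, to 7.52 with BGJ398 and 0.430 with DMSO in ZNF, and to 9.10 with BGJ398 and 0.654 with DMSO in BCRF8C. In these ZNF and BCRF8C libraries 3 of the 6 markers reached 1 FPKM with BGJ398 and 0 with DMSO, and Cd79b, Igll1 and Vpreb1 were listed at 0. Entries above 0 numbered 13984 in both ZNF libraries and 15529 in both BCRF8C libraries, so whether a listed 0 is a measured absence is not known. The 4 T lineage markers with an entry, of 7 listed, summed to 406 FPKM with BGJ398 and 622 with DMSO in ZNF, to 32.8 with BGJ398 and 30.8 with DMSO in BBC, and to 8.95 with BGJ398 and 3.34 with DMSO in BCRF8C. The 2 myeloid markers with an entry, of 6 listed, summed to 5.18 FPKM with BGJ398 and 5.97 with DMSO in BBC, to 3.52 with BGJ398 and 0.0977 with DMSO in BCRF8C, and were listed at 0 in ZNF, and the 4 stromal markers with an entry, of 8 listed, summed to 16.4, 18.5 and 46.6 FPKM with BGJ398 and to 15.1, 26 and 78.6 with DMSO in BBC, ZNF and BCRF8C. The part of these markers in the results was not tested.

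Cytosolic synthetase genes fell across the 3 lines. In the limma fit with the line as a block, 19 of 20 cytosolic and 12 of 16 mitochondrial genes fell at an adjusted p under 0.05, and 0 rose in either set (1 cytosolic and 0 mitochondrial further genes had an unadjusted p under 0.05). Of all genes tested, 30.2% were called lower and 6.61% higher. The median log2 ratio was -1.93 for the cytosolic and -1.24 for the mitochondrial genes, or -1.24 and -0.54 relative to all tested genes. All 36 genes passed the minimum mean of 1 FPKM. Adjusted p-values of the called cytosolic genes lay between 0.0348 and 0.0370, and those of the called mitochondrial genes between 0.0348 and 0.0475. They rest on the spread between 3 different lines, 1 culture each, which limma moderates with that of the other genes. The calls depended on the scaling. Under quantile normalization, with the trend of the ratio on expression removed and under median-of-ratios scaling, 0 genes of either set were called. In the same settings 3, 0 and 4 of all genes tested were called in either direction, so these counts are not particular to the members. Without BBC 0 members were called, and 0 of all genes. Without BCRF8C 7 cytosolic and 1 mitochondrial gene were called, beside 1648 of all genes. Without ZNF the counts were 20 and 9, beside 4974 of all genes.

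The median cytosolic gene stood at a higher level than the median mitochondrial one in every library. With BGJ398 the median cytosolic gene stood at 11.7 FPKM for BBC, 33.7 for ZNF and 16.2 for BCRF8C, against 72.6, 71.4 and 94.4 FPKM with DMSO. The median mitochondrial gene stood at 2.50, 8.47 and 3.13 FPKM with BGJ398, against 12.1, 14.3 and 11.3 FPKM with DMSO. Summed over all 36 genes the level was 318, 900 and 502 FPKM with BGJ398 and 1646, 2037 and 2145 FPKM with DMSO in the same order of lines. Every BGJ398 library lay below every DMSO library for 18 of the 20 cytosolic genes and for 8 of the 16 mitochondrial ones, beside 35.1% of all tested genes. The BGJ398 value was the lower one in each line for 20 cytosolic and 14 mitochondrial genes, beside 55.7% of all tested genes. Those shares include genes listed at 0, 986 in each ZNF library and 684 in each BCRF8C library, while all 36 members were above 0 throughout. A gene at 0 in both libraries of a line cannot count as lower there. With only genes above 0 in all libraries tested, 7287 genes changed in limma, and 20 cytosolic and 13 mitochondrial members were called lower.

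**Figure D1:**
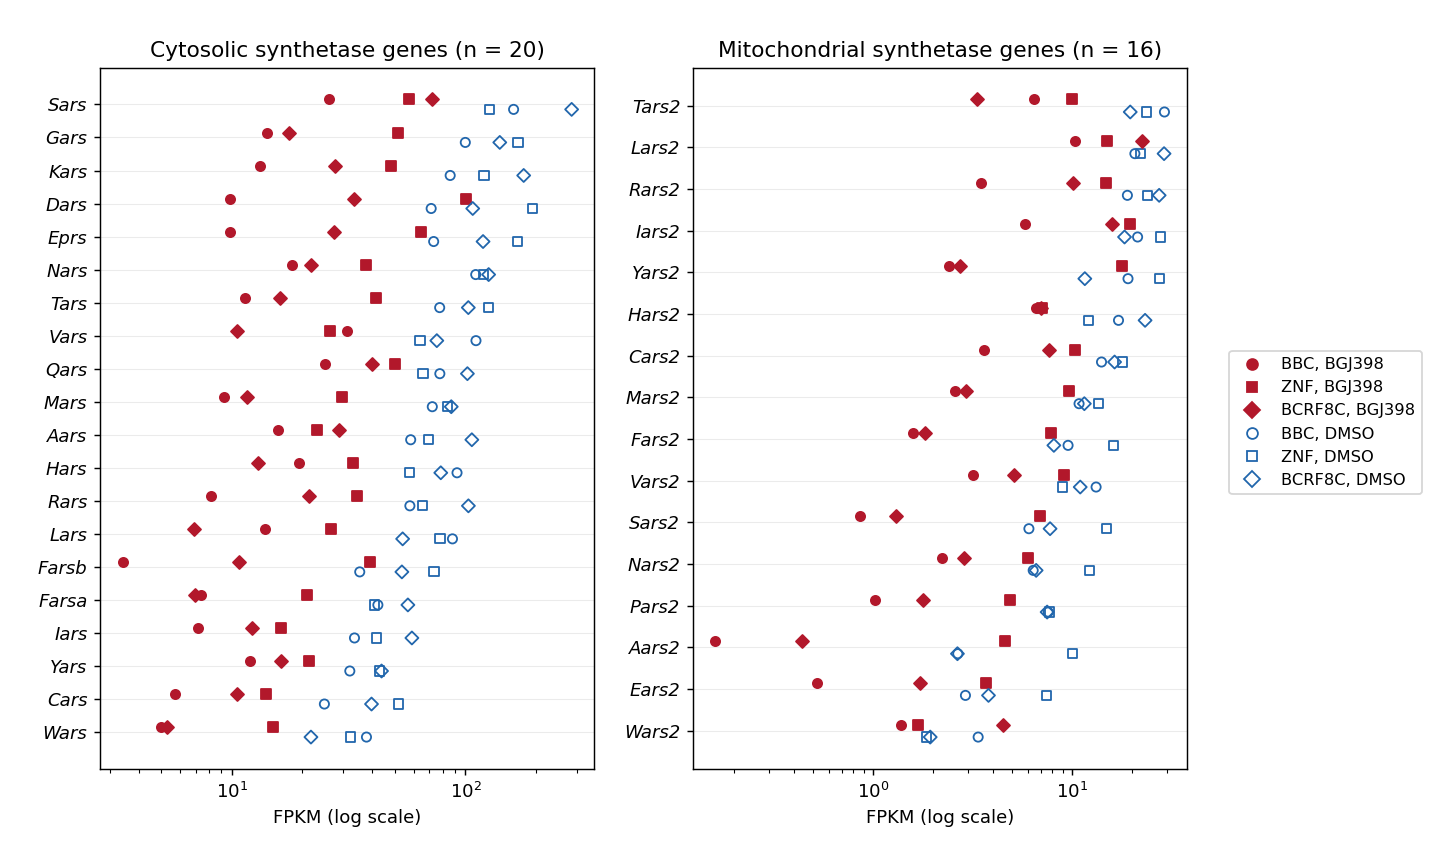
FPKM on a log axis for each synthetase gene, cytosolic on the left and mitochondrial on the right, ordered by mean DMSO level; filled red symbols are BGJ398 libraries, open blue ones DMSO libraries, and shapes mark the lines. Red symbols lie to the left of the blue ones without overlap for 18 of 20 cytosolic and 8 of 16 mitochondrial genes.

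The promoters are shown for the genes that carry a match to the element ATF4 binds. Windows of 250 bases before to 50 after the start (RefSeq, build GRCm38.p6) were found for 13 cytosolic and 14 mitochondrial members. TGATGNAA, the core of the C/EBP-ATF response element, was searched on both strands. It matched in 5 of 13 cytosolic windows (38.5%) and 0 of 14 mitochondrial ones, against 2.95% of 9158 tested genes with a window and 4.51% of all 27025 genes with one. The matching genes were Aars, Gars, Iars, Tars and Yars, each on the list of 12 cytosolic genes known as ATF4 targets in fibroblasts, 8 of which had a window. The E-box CACGTG, which MYC binds, matched in 4 cytosolic windows (Aars, Farsb, Iars and Tars), in the mitochondrial gene Ears2 and in 11.99% of tested genes, and no E-box overlapped a TGATGNAA match. A match describes letters in a window and no bound site. The 250 bases before the start follow for the 3 genes with a match there, with the match in capitals (Gars chr6:55037751-55038000 plus strand, Tars chr15:11399659-11399908 minus strand, Aars chr8:111033592-111033841 plus strand).
Gars: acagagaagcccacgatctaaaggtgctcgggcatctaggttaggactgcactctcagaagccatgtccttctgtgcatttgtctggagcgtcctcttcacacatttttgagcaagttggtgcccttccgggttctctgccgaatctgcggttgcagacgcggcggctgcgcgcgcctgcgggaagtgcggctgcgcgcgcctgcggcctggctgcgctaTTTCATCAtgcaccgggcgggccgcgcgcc
Tars: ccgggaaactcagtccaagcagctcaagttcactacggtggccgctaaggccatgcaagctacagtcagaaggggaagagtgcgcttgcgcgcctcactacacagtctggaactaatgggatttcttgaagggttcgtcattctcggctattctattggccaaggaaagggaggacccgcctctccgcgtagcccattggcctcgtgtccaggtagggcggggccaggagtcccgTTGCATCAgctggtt
Aars: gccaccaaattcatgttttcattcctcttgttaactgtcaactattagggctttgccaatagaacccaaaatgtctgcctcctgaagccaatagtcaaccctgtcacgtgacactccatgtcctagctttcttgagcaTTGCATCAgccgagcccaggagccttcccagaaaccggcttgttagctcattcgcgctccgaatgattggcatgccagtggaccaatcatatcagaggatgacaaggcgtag

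In Iars, Yars and a further place in Aars the match lay just past the start, 8, 4 and 10 bases into the transcript. These sites are given as 30 bases each (Iars chr13:49682126-49682155, Yars chr4:129189895-129189924, Aars chr8:111033840-111033869, all plus strand), with the match in capitals.
Iars: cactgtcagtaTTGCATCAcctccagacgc
Yars: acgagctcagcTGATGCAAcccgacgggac
Aars: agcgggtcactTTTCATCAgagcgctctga

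The 5 cytosolic genes with a TGATGNAA match had a median log2 ratio of -1.86, and the 8 with a window and no match one of -2.05. Both medians lay below that of all tested genes. Over all tested genes with a window the medians were -0.65 with and -0.82 without a match.

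Gars (ENSMUSG00000029777, chromosome 6, 54987995 to 55029498 in NCBIM37), which charges glycine transfer RNA in both compartments, had the lowest mean ratio of the 36 on the log2(FPKM + 1) scale. It stood at 14.1, 51.6 and 17.5 FPKM with BGJ398 in BBC, ZNF and BCRF8C, against 99.8, 168 and 140 FPKM with DMSO. The 3 BGJ398 libraries lay below the 3 DMSO libraries without overlap, and the log2 ratio was -2.45 ± 0.67 (SD, n = 3 lines; limma adjusted p = 0.0348). Kars, the lysine gene and the other one that serves both compartments, stood at 13.2, 48.0 and 27.8 FPKM with BGJ398, against 86.0, 120 and 177 FPKM with DMSO (-2.18 ± 0.76, limma adjusted p = 0.0348). The dual-compartment genes were thus lower than the median of either set.

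Next in order came the methionine, leucine, threonine and asparagine genes. Mars, whose product charges both initiator and elongator methionine transfer RNA, stood at 9.26, 29.6 and 11.6 FPKM with BGJ398, against 72.1, 84 and 86.9 FPKM with DMSO, a log2 ratio of -2.37 ± 0.78. Lars, the leucine gene, stood at 13.8, 26.5 and 6.91 FPKM with BGJ398, against 88, 77.8 and 53.9 FPKM with DMSO (-2.30 ± 0.68). For both genes the ratio closest to 0 was that of ZNF. Tars (ENSMUSG00000022241, chromosome 15, 11313418 to 11329413 in NCBIM37), the threonine gene, stood at 11.4, 41.3 and 16.1 FPKM with BGJ398, against 77.6, 125 and 103 FPKM with DMSO (-2.28 ± 0.61). Nars, the asparagine gene, stood at 18.0, 37.7 and 21.8 FPKM with BGJ398, against 111, 120 and 126 FPKM with DMSO (-2.22 ± 0.50). The limma adjusted p of each of these 4 was 0.0348, and in each the agents did not overlap.

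Eprs, the fused glutamate and proline gene, stood at 9.82, 64.6 and 27.4 FPKM with BGJ398, against 73.1, 167 and 119 FPKM with DMSO (-2.07 ± 0.71, limma adjusted p = 0.0348). The subunit genes of the phenylalanine enzyme had nearly the same mean ratio. Farsa, the alpha subunit gene, stood at 7.35, 21.0 and 6.94 FPKM with BGJ398, against 42.2, 41.0 and 56.7 FPKM with DMSO (-2.05 ± 1.0). Farsb, the beta subunit gene, stood at 3.41, 38.9 and 10.8 FPKM with BGJ398, against 35.3, 73.3 and 53.5 FPKM with DMSO (-2.05 ± 1.08). Within a line the subunits were less alike: Farsb was the lower of the 2 in BBC, with -3.04 against -2.37 for Farsa, and Farsa in BCRF8C, with -2.86 against -2.21 for Farsb. On the log2(FPKM + 1) scale Farsb in BBC had the lowest ratio of any member in any line. Without the added 1, Aars2 in BBC was lower still, at 0.162 FPKM with BGJ398 and 2.68 with DMSO. For both subunits limma gave an adjusted p = 0.0348, and only for Farsb did the agents overlap.

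The remaining called cytosolic genes had mean log2 ratios from -1.94 to -1.23. They were Rars (arginine, -1.94), Vars (valine, -1.93), Sars (serine, -1.89), Wars (tryptophan, -1.87), Cars (cysteine, -1.86), Iars (isoleucine, -1.86), Hars (histidine, -1.83), Dars (aspartate, -1.78), Aars (alanine, -1.73) and Yars (tyrosine, -1.23). Sars, the member with the highest mean DMSO level, stood at 26.1, 57.3 and 72.1 FPKM with BGJ398 in BBC, ZNF and BCRF8C, against 161, 127 and 285 FPKM with DMSO. Cars varied least between the lines, with log2 ratios of -1.95, -1.81 and -1.82 in BBC, ZNF and BCRF8C. Dars overlapped between agents, since ZNF with BGJ398 (100 FPKM) lay above BBC with DMSO (71.3 FPKM). With the expression trend removed, the mean of Yars turned to 0.02, while the other genes named in this paragraph remained below 0.

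Qars, the glutamine gene, was the 1 cytosolic gene that did not pass. It stood at 25, 49.9 and 39.7 FPKM with BGJ398, against 77.7, 65.8 and 102 FPKM with DMSO (-1.11 ± 0.63, limma adjusted p = 0.0712). The agents did not overlap for Qars, and its ratio was the closest to 0 of the cytosolic genes in ZNF, at -0.39, and in BCRF8C, at -1.34. After quantile normalization its mean turned to 0.20 and with the expression trend removed to 0.34. Mitochondria have no glutamine enzyme of their own and convert glutamate-charged transfer RNA with an amidotransferase of 3 subunits. Of their genes, Qrsl1 (-1.19 ± 0.31, limma adjusted p = 0.0350) and Pet112l (-1.47 ± 0.78, adjusted p = 0.0360) fell, and Gatc (-0.60 ± 0.75, adjusted p = 0.210) did not pass. Gatc stood at 2.47, 5.30 and 3.09 FPKM with BGJ398, against 7.85, 4.66 and 5.22 FPKM with DMSO.

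**Figure D2:**
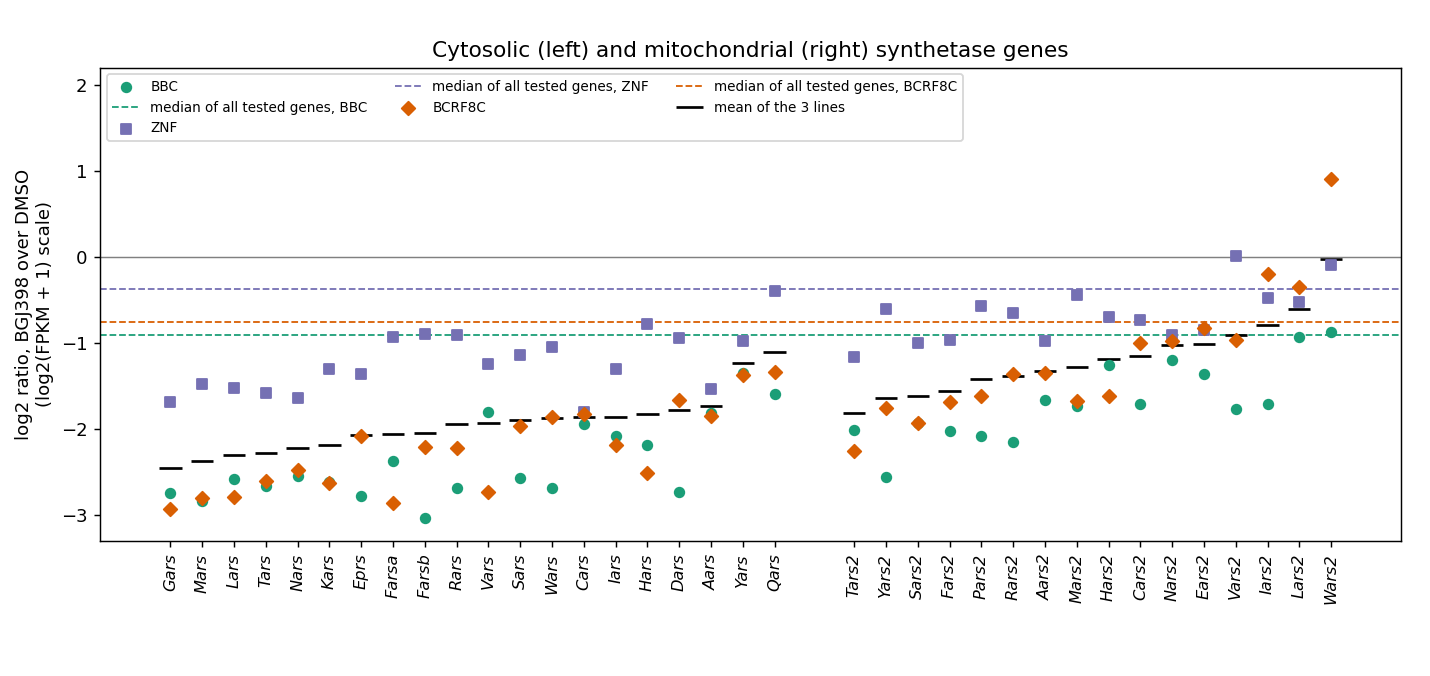
Log2 ratio of BGJ398 over DMSO on the log2(FPKM + 1) scale for each synthetase gene, cytosolic on the left and mitochondrial on the right; coloured symbols are the 3 lines, black bars their mean, and dashed lines the median of all tested genes in each line. The means run from -2.45 for Gars to -0.02 for Wars2, and as deposited the ZNF symbol is the one nearest 0 for 33 of 36 genes; under other scalings the means of Qars, Yars, Iars2, Lars2 and Wars2 turn above 0.

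The lines differed in the size of the change. In BBC all 20 cytosolic genes were at least 2-fold lower with BGJ398 on the log2(FPKM + 1) scale, in ZNF 13 and in BCRF8C 20, beside 46.5%, 14.2% and 42.4% of all tested genes. On that scale no member was 2-fold higher in any line, beside 7.72%, 14.6% and 18.4% of all tested genes, but Wars2 in BCRF8C, at 4.52 FPKM with BGJ398 and 1.95 with DMSO, was above 2-fold without the added 1. Of the 16 mitochondrial genes, 14 were at least 2-fold lower in BBC, 2 in ZNF (Tars2 and Sars2) and 10 in BCRF8C. As deposited, the ZNF ratio was the closest to 0 of the 3 lines for 20 cytosolic and 13 mitochondrial genes. The median ratio of all tested genes was also closest to 0 in ZNF, at -0.37, against -0.91 in BBC and -0.76 in BCRF8C. Under each of the 3 other scalings the ZNF ratio was instead the lowest for some members, Cars, Aars, Yars and Lars2 among them. Differences between lines were not tested, as each line had 1 library per agent.

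The cytosolic genes known as ATF4 targets in fibroblasts were set beside the other cytosolic genes. In ZNF the 12 listed genes had a median log2 ratio of -1.50 and the 8 others one of -0.92. There 11 of 12 listed genes and 2 of 8 others (Kars and Vars) were at least 2-fold lower, beside 14.2% of all tested genes. In BBC the medians were -2.58 for the listed and -2.49 for the other genes, and in BCRF8C -2.13 and -2.36. A gap between listed and other genes was thus seen in ZNF as deposited, and there it was also present after quantile normalization (-0.71 and -0.15) and with the expression trend removed (-0.65 and -0.05). In both rescaled settings 1 listed gene and 0 others were at least 2-fold lower in ZNF, beside 801 and 605 of all tested genes. After median-of-ratios scaling 8 listed genes and 0 others were, beside 815 of all tested genes. All 12 listed genes fell in limma as deposited, as did 7 of the 8 others, beside 30.2% of all tested genes. Under the 3 other scalings 0 genes of either group were called, and at most 4 of all genes tested. The gap itself was not tested.

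Atf4 itself stood at 17.1, 55.1 and 19.1 FPKM with BGJ398 in BBC, ZNF and BCRF8C, against 142, 233 and 202 FPKM with DMSO. Its log2 ratios were -2.99, -2.06 and -3.34 (limma adjusted p = 0.0348). Myc, whose product is another known activator of genes for protein synthesis, had log2 ratios of -3.44 in BBC, -0.37 in ZNF and -1.64 in BCRF8C (adjusted p = 0.0552). In ZNF, with 1 library per agent, Atf4 was thus well below the median of all genes and Myc at it, while in BBC and BCRF8C both were below it. The part of either gene in the synthetase ratios was not tested. Of 22 genes of ATF4 and amino acid supply 18 fell, beside 30.2% of all tested genes (median -2.06, or -1.37 relative to all genes), led by the serine hydroxymethyltransferase gene Shmt2 (-3.04), the asparagine synthetase gene Asns (-2.80) and Atf4. Under each of the 3 other scalings 0 of the 22 were called, and at most 4 of all genes tested.

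**Figure D3:**
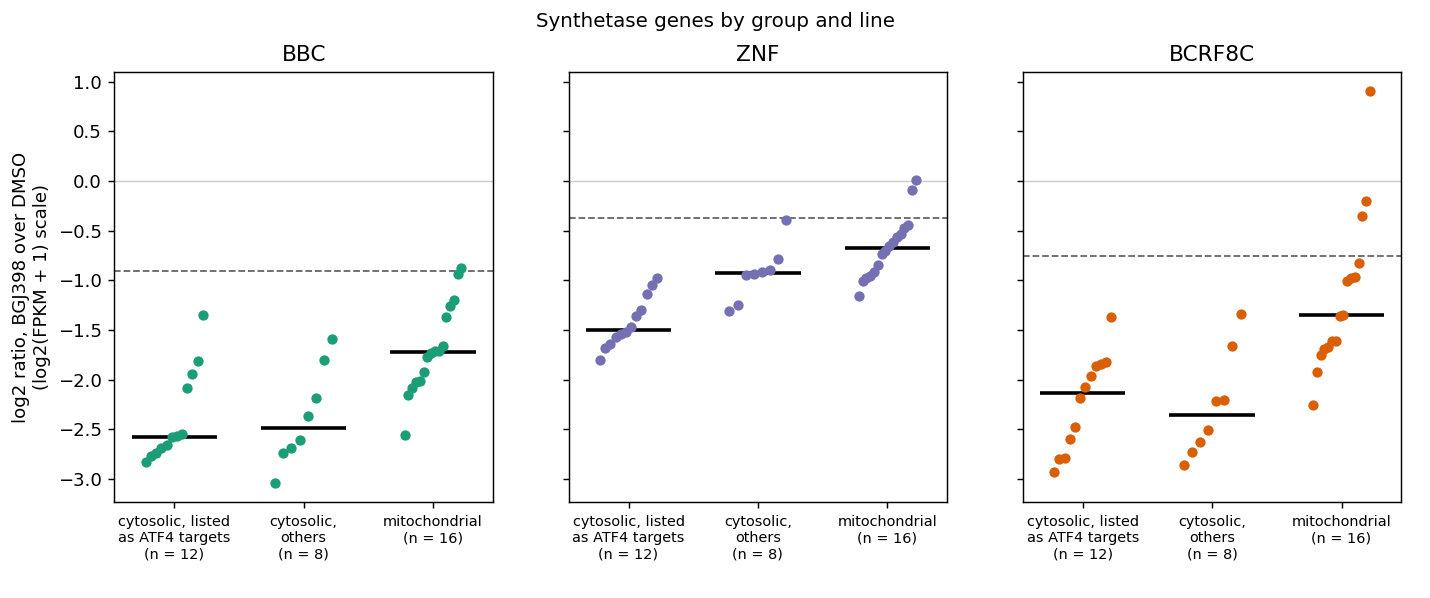
Log2 ratio of BGJ398 over DMSO for cytosolic genes listed as ATF4 targets, other cytosolic genes and mitochondrial genes in each line; each point is a gene, black bars are medians and the dashed line is the median of all tested genes. In ZNF the listed genes have a median of -1.50 and the other cytosolic genes one of -0.92.

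The 8 synthetase genes of the multi-synthetase complex (Dars, Eprs, Iars, Kars, Lars, Mars, Qars and Rars) had a median log2 ratio of -2.01, and the 12 cytosolic genes outside it one of -1.91. All except Qars fell in limma. The scaffold genes fell as well. Aimp1 stood at 10.7, 21.4 and 9.79 FPKM with BGJ398, against 45.6, 59.3 and 49.2 FPKM with DMSO (-1.88 ± 0.41). Eef1e1, which encodes the scaffold protein AIMP3, stood at 5.06, 38.6 and 11.2 FPKM with BGJ398, against 40.3, 61.9 and 75.1 FPKM with DMSO (-2.03 ± 1.18). Aimp2 was the scaffold gene with the smallest fall, at -1.69 ± 0.98. Limma adjusted p-values of the scaffold genes lay between 0.0348 and 0.0364. Synthetases also fall into structural classes with unrelated catalytic folds. Leaving out Eprs, which holds both, the 17 class II genes had a median of -1.81 and all were called lower. The 18 class I genes had one of -1.34 with 13 called, and 30.2% of all tested genes were called lower. Under the 3 other scalings 0 genes of either class were called. The 5 members that did not pass were all of class I, and 4 of them are mitochondrial. Among cytosolic genes alone the medians were -2.05 for class II (10 genes) and -1.87 for class I (9 genes). A part of class apart from compartment was not tested.

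Among mitochondrial genes, Tars2, the threonine gene, had the lowest mean ratio on the log2(FPKM + 1) scale. It stood at 6.48, 10.1 and 3.33 FPKM with BGJ398, against 29.3, 23.7 and 19.7 FPKM with DMSO, without overlap (-1.81 ± 0.58, limma adjusted p = 0.0348). With 0.1 added in place of 1, the mean ratios of Aars2 (-2.29) and Sars2 (-2.09) were below that of Tars2 (-1.97). Yars2, the tyrosine gene, stood at 2.42, 17.8 and 2.74 FPKM with BGJ398, against 19.2, 27.7 and 11.6 FPKM with DMSO (-1.64 ± 0.98, adjusted p = 0.0364). Sars2, the serine gene, stood at 0.864, 6.95 and 1.31 FPKM with BGJ398, against 6.10, 14.9 and 7.79 FPKM with DMSO (-1.62 ± 0.53). Yars2 and Sars2 overlapped between agents through the ZNF library with BGJ398.

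Fars2, the phenylalanine gene, stood at 1.60, 7.83 and 1.83 FPKM with BGJ398, against 9.59, 16.2 and 8.14 FPKM with DMSO (-1.56 ± 0.54). Pars2, the proline gene, stood at 1.03, 4.91 and 1.79 FPKM with BGJ398, against 7.62, 7.76 and 7.53 FPKM with DMSO (-1.42 ± 0.78). Pars2 had nearly the same level in the 3 DMSO libraries and differed between lines with BGJ398. Rars2, the arginine gene, stood at 3.50, 14.9 and 10.1 FPKM with BGJ398, against 19.1, 24.0 and 27.5 FPKM with DMSO (-1.39 ± 0.75). None of these 3 overlapped between agents, and their limma adjusted p-values lay between 0.0348 and 0.0386.

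The other called mitochondrial genes were Aars2 (alanine, -1.33), Mars2 (methionine, -1.28), Hars2 (histidine, -1.19), Cars2 (cysteine, -1.15), Nars2 (asparagine, -1.03) and Ears2 (glutamate, -1.01). Aars2 had the widest spread between DMSO libraries by the ratio of highest to lowest, and stood at 0.162, 4.63 and 0.442 FPKM with BGJ398 in BBC, ZNF and BCRF8C, against 2.68, 10.1 and 2.67 FPKM with DMSO. Ears2 had the highest adjusted p of the called genes, at 0.0475, and kept the call in 1 of the alternatives run, that with only genes above 0 in all libraries.

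Wars2, Lars2, Iars2 and Vars2 did not pass, and the last 3 are described in full because they did not. Wars2, the tryptophan gene, stood at 1.39, 1.68 and 4.52 FPKM with BGJ398, against 3.39, 1.86 and 1.95 FPKM with DMSO. The log2 ratio was -0.87 for BBC, -0.09 for ZNF and 0.90 for BCRF8C, the highest of any member in any line (mean -0.02 ± 0.89, limma adjusted p = 0.970). Its mean turned above 0 after median-of-ratios scaling (0.54), without BBC (0.41) and without ZNF (0.02). Lars2, the leucine gene, stood at 10.4, 15.1 and 22.6 FPKM with BGJ398, against 20.8, 22.2 and 29.1 FPKM with DMSO (-0.60 ± 0.30, adjusted p = 0.156). Lars2 was below the DMSO library in each line, but by less than 2-fold in each on the log2(FPKM + 1) scale.

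Iars2, the isoleucine gene, stood at 5.84, 19.7 and 15.9 FPKM with BGJ398, against 21.4, 27.9 and 18.4 FPKM with DMSO (-0.80 ± 0.81, adjusted p = 0.139). Its BBC ratio of -1.71 stood apart from -0.48 in ZNF and -0.20 in BCRF8C. Vars2, the valine gene, stood at 3.18, 9.10 and 5.14 FPKM with BGJ398, against 13.3, 8.99 and 11 FPKM with DMSO (-0.91 ± 0.90, adjusted p = 0.104). In ZNF the Vars2 libraries were nearly equal, and Vars2 and Wars2 were the 2 members that were not lower in all 3 lines. Both Lars2 and Iars2 turned above 0 after quantile normalization, with means of 0.51 and 0.25, and with the expression trend removed, with means of 0.59 and 0.35. As deposited, Lars2, Iars2 and Wars2 lay above the median of all genes in BCRF8C, which was -0.76. Of 14 genes listed for mitochondrial translation and transcription 9 fell (median -1.25, or -0.55 relative to all genes). They were led by the elongation factor genes Tufm (-2.18), Tsfm (-1.66) and Gfm1 (-1.60). Tfam, Polrmt, Tfb1m, Tfb2m and Lrpprc on that list are not translation factors. Among 13 tested genes of related charging steps 10 fell (median -1.40, or -0.71 relative to all genes), led by the transfer RNA exportin gene Xpot (-2.22), Pstk (-1.80) and Aarsd1 (-1.75). Both counts stand beside 30.2% of all tested genes called lower. Under the 3 other scalings 0 genes of either list were called, and at most 4 of all genes tested.

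Enzymes for the same amino acid were compared across compartments in 16 pairs, with Eprs set against both Ears2 and Pars2. The FPKM ratio of the cytosolic to the mitochondrial gene had a median of 4.09, 3.58 and 3.87 with BGJ398 in BBC, ZNF and BCRF8C, against 5.99, 5.73 and 6.90 with DMSO. The ratio was above 1 in all 16 pairs of each DMSO library, and in 16, 15 and 14 pairs of the BGJ398 libraries. In the mean over lines the cytosolic gene had the lower log2(FPKM + 1) ratio in 15 of 16 pairs, with tyrosine as the exception, and in 10 of 16 after quantile normalization and in 10 with the expression trend removed. Without the added 1, a setting chosen after seeing the data, the FPKM ratio of the pair was lower with BGJ398 in 13 of 16 pairs in the mean, and the alanine (0.81 on the log2 scale), tyrosine (0.62) and serine (0.25) pairs were higher. The alanine ratio (Aars over Aars2) was 97.8, 5.02 and 65.4 with BGJ398, against 21.8, 6.88 and 39.9 with DMSO, with Aars2 below 1 FPKM in the BGJ398 libraries of BBC and BCRF8C. The leucine ratio (Lars over Lars2) was 1.33, 1.76 and 0.305 with BGJ398, against 4.23, 3.51 and 1.85 with DMSO. The tryptophan ratio (Wars over Wars2) was 3.58, 8.94 and 1.17 with BGJ398, against 11.1, 17.3 and 11.2 with DMSO. With BGJ398 the leucine pair in BCRF8C and the isoleucine pair in ZNF (0.826) and BCRF8C (0.765) had a higher mitochondrial than cytosolic FPKM. Iars and Iars2 each share a locus with another entry, so the isoleucine ratio is uncertain. The tyrosine ratio (Yars over Yars2) was 4.95, 1.20 and 5.93 with BGJ398, against 1.67, 1.55 and 3.76 with DMSO, higher in BBC and BCRF8C and lower in ZNF.

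**Figure D4:**
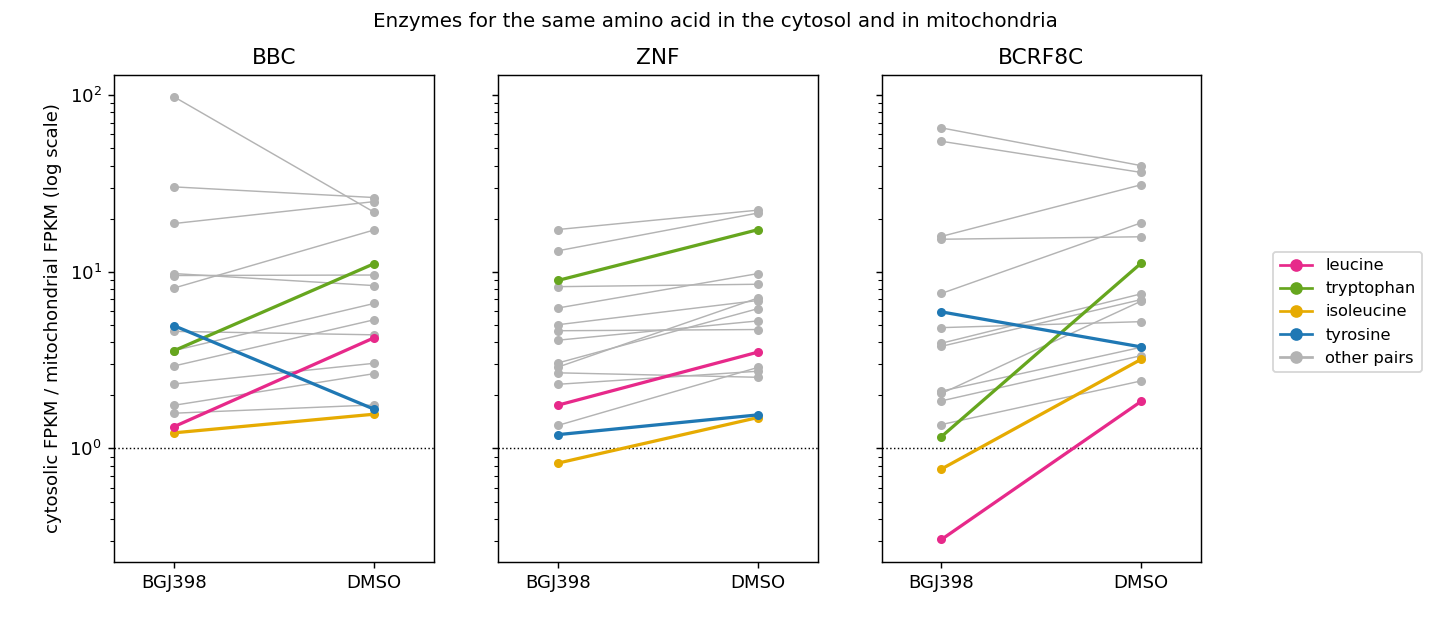
FPKM of the cytosolic gene divided by that of the mitochondrial gene for the same amino acid (log axis) with BGJ398 and with DMSO in each line; lines join the agents and 4 amino acids are coloured. The leucine pair in BCRF8C is at 0.305 with BGJ398 and 1.85 with DMSO, and 1 is marked by a dotted line.

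How far the compartments differ depended on the scaling. As deposited the cytosolic median was below the mitochondrial one by 0.86 in BBC, 0.60 in ZNF and 0.86 in BCRF8C on the log2 scale, a mean difference of -0.77 ± 0.15 (SD, n = 3 lines). After median-of-ratios scaling, which moved the median of all genes from -0.69 to -0.02, the difference was -0.65 ± 0.06. With the expression trend removed it was -0.21 ± 0.06, and after quantile normalization -0.03 ± 0.18, with the sign turned in BCRF8C (0.16). An exact sign-flip test of 3 lines cannot go below p = 0.25, so none was made. Both sets had medians below that of all genes under each of these scalings: relative to all genes, the cytosolic median was -0.71 under quantile normalization, -1.13 under median-of-ratios scaling and -0.70 with the trend removed, and the mitochondrial one -0.66, -0.52 and -0.45. With the trend removed, 18, 18 and 16 of 20 cytosolic genes were lower in BBC, ZNF and BCRF8C, and 14, 10 and 10 of 16 mitochondrial ones, beside 49.1%, 50.5% and 49.4% of all tested genes.

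**Figure D5:**
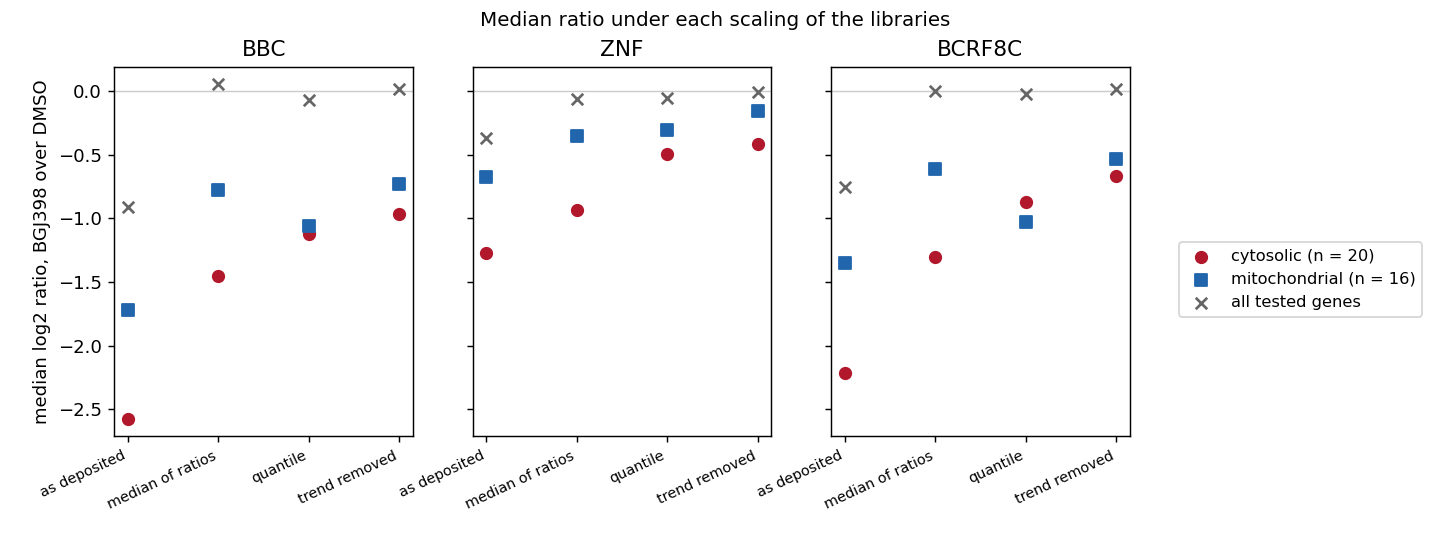
Median log2 ratio of BGJ398 over DMSO in each line for cytosolic genes, mitochondrial genes and all tested genes, as deposited and under 3 other scalings. Both synthetase medians lie below that of all genes throughout, and the order of cytosolic and mitochondrial medians turns in BCRF8C after quantile normalization.

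Some values are uncertain because reads may be shared. The locus given in the table was the same for the member and another entry in 9 members: Hars with Hars2, Mars with Ddit3, Lars with Rps19-ps4, Vars with D17H6S56E-5, Iars with SNORA84, Yars with C77080, Ears2 with Ubfd1 and Iars2 with Rab3gap2. Strandedness is not given in the sources used here, so reads of overlapping genes could not be told apart. Ddit3, the neighbour of Mars, had log2 ratios of -0.77, -1.90 and -1.65 in BBC, ZNF and BCRF8C, against -2.83, -1.48 and -2.81 for Mars.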

How the data were processed

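The authors deposited 1 table of FPKM values with 6 columns, each named like 1 sample title. The submitters' processing notes name TopHat2 (version 2.0.12), bcl2fastq and the build NCBIM37. Which program gave the FPKM, and with which annotation or gene filter, is not given in the sources used here. One base was added to each locus start, since end minus start matched the GENCODE vM21 gene length for 6377 of 15944 matched entries and that length minus 1 for 166. Depth is unknown: low values scaled by length in genes with 1 exon and transcript showed a strongest periodicity of 0.163 in any library, where whole multiples of a read give 1.

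The main analysis took log2(FPKM + 1) of the values as deposited. The 14232 genes whose mean over the 6 libraries reached 1 FPKM were tested with limma (version 3.58.1, R 4.3.3; eBayes, intensity trend) for BGJ398 over DMSO, line as block, two-sided, with Benjamini-Hochberg adjustment over all genes tested. Every adjusted p in the text comes from that fit. The block leaves 2 residual degrees of freedom. The 2 libraries of a block share their cell line, and their deviations from the group means correlated at 0.454 (BBC), 0.541 (ZNF) and 0.549 (BCRF8C). No repeat cultures are labelled, so the spread behind each p-value is that between lines. In eBayes the spread of a gene is drawn towards a trend over all genes. The SD printed beside a p-value is the gene's own and is not the spread used in the test. Within a line there is no test, and genes at least 2-fold apart are counted. Alternatives were other pseudocounts, filters and scalings, removal of a lowess trend of the ratio on mean expression (span 0.3), no block, and each line left out.

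All members are named; library values are given for the 8 cytosolic and 6 mitochondrial genes with the largest absolute mean ratio, the smallest of each set, Gars, Kars and Eprs, and, chosen after values were seen, Farsb, Sars, Aars2, Lars2, Iars2 and Vars2. Members and lists were chosen with earlier results of these data known. Genes on the ATF4 list rest on background knowledge. Promoters were matched through Entrez and Ensembl identifiers to RefSeq.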

Additional observations from a re-analysis of the deposited data

How the results depend on the processing

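The counts of called genes depended on the scaling, the block and the lines. In total 5236 genes changed in limma as deposited; 4 did under median-of-ratios scaling, 3 under quantile normalization, 0 (3079 by unadjusted p under 0.05) with the trend of ratio on expression removed, 7 with no replicate block, and between 0 (without BBC; 2991 at an unadjusted p under 0.05) and 4974 (without ZNF) with a line left out. Called cytosolic genes, 19 as deposited, numbered 0 under each of those 3 scalings (18, 11 and 10 at an unadjusted p under 0.05), 0 without the block pairing the libraries of a line (19 unadjusted) and 0 to 20 with a line left out. Called mitochondrial genes, 12 as deposited, numbered 0 (7, 7 and 6 unadjusted), 0 (8 unadjusted) and 0 to 9 in the same order. Among genes above 0 in all libraries, an alternative chosen after seeing the data, 412 genes changed with the trend removed and 461 after quantile normalization, and 0 members of either set were called (10 cytosolic and 6 mitochondrial, and 12 and 7, at an unadjusted p under 0.05). The difference of the cytosolic and mitochondrial medians was -0.61 with a pseudocount of 0.1, -0.21 with the trend removed, -0.030 after quantile normalization, and -0.21 and -0.033 among genes above 0 in all libraries. Counts of cytosolic genes at least 2-fold lower were 13, 1 and 8 in BBC, ZNF and BCRF8C after quantile normalization, 9, 1 and 5 with the trend removed, and 8 in ZNF after median-of-ratios scaling. Those of mitochondrial genes were 6, 0 and 2 after median-of-ratios scaling and 9 and 0 in BBC and ZNF after quantile normalization. With the trend removed they were 6, 0 and 5, and in ZNF 5 with a pseudocount of 0.1 and 10 at 1.5-fold. Over all 14232 genes tested, those at least 2-fold lower in BBC, ZNF and BCRF8C numbered 1904, 815 and 2437 after median-of-ratios scaling. They numbered 2382, 801 and 2725 after quantile normalization and 1628, 605 and 1888 with the trend removed. Mean log2 ratios changed sign for Qars (0.20 after quantile normalization, 0.34 with the trend removed; 0.25 and 0.36 among genes above 0 in all libraries), Yars (0.020 with the trend removed, 0.027 among genes above 0), Iars2 (0.25 and 0.35; 0.27 and 0.35), Lars2 (0.17 after median-of-ratios scaling, 0.51 and 0.59; 0.54 and 0.60), Wars2 (0.54 after median-of-ratios scaling; with a line left out between -0.48, without BCRF8C, and 0.41, without BBC) and Gatc (0.052 after median-of-ratios scaling, 0.0055 with the trend removed among genes above 0). The cause was not tested. The other 31 members kept their direction under each alternative run. Without replicates within a line and with depth unknown, no counting error can be given.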
